A study of Zea mays with 27 samples.

Results

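ANT1 (gene symbol LOC542386) encodes an adenine nucleotide translocator of maize. It was followed on 27 arrays of adult leaf RNA, through all 36 spots whose symbol in the array annotation is LOC542386. These spots were 12 cDNAs printed 3 times each, out of 5400 cDNAs on the array, of which 811 carried the name of 1 of 213 genes. All 12 had a value on every array. The gene was chosen by its log ratios on these same arrays, across all groups, so its values are given as a description, and its calls are read only beside the share of all cDNAs called.

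Adenine nucleotide translocators sit in the inner mitochondrial membrane, where they pass ATP made by respiration out to the cytosol in exchange for ADP. They belong to the mitochondrial carrier family, are abundant proteins of that membrane, and link the ATP synthase to the parts of the cell that use ATP. Maize has close copies of this gene, and one of them, ANT2 (LOC542389), is also on the array.

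The plants were of genotype b,pl, B,Pl, bz2 or a line labelled mutator. B and Pl are regulators of anthocyanin synthesis, and Bz2 acts in moving anthocyanin into the vacuole. Plants grew under plastic labelled CA, PE or LE (abbreviations that the labels do not spell out), were sampled 1 day after the PE plastic had been taken off, or stood in a greenhouse after 8 h of supplementary UV-B or with no UV-B. The other channel held b,pl CA RNA on most arrays and the CA RNA of the same genotype on the B,Pl LE array, 1 B,Pl PE array and the LE and PE arrays of bz2 and mutator. B,Pl PE was measured on 3 arrays. Groups with 2 arrays were LE in b,pl and bz2, PE and UV-B in b,pl, CA in B,Pl, and PE removed in b,pl and B,Pl. Every other group had 1 array: no UV-B in b,pl, LE in B,Pl and mutator, PE in bz2 and mutator, CA in bz2 and mutator, and UV-B in B,Pl, bz2 and mutator. The labels give no plant ages or numbers and nothing in them ties arrays of 1 group, dye swaps included, to separate plants, so the spread between arrays may be technical. Leaf marker genes were looked up by description, which the annotation does not give. The lookup found 0 genes, so the leaf label was not checked.

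Each value below is a log2 ratio, centred so that the median cDNA of its array is 0, and is printed as the named group over the other channel. This direction rests on reading the deposited values as Cy5 over Cy3, which the sources used here do not settle. If they are Cy3 over Cy5, every sign turns. Correlations over arrays between cDNAs or genes were taken on the Cy5 over Cy3 values, without turning them to the named group. A further 4 arrays have conflicting dye labels (mutator CA, bz2 CA, replicate 2 of B,Pl PE and replicate 2 of b,pl PE removed), and their titles were followed. The arrays measured ratios between leaf RNAs, in which fewer cells of a type and less RNA per cell cannot be told apart.

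The mean of the 12 ANT1 cDNAs was positive on 16 of 27 arrays. Under LE the b,pl arrays gave 0.39 and 0.21, the B,Pl array 0.42, the mutator array 0.28, and the bz2 arrays 0.01 and −0.06. The b,pl, B,Pl and mutator LE arrays were thus all above both bz2 LE arrays. Under PE the bz2 array gave −0.28, the mutator array −0.13, and the 3 B,Pl arrays −0.28, −0.03 and 0.02, the first of these against B,Pl CA and the other two against b,pl CA. Within mutator the LE array was above the PE array, and within bz2 both LE arrays were above the PE array.

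The 2 b,pl PE arrays stood on opposite sides of 0, at 0.37 on replicate 1 and −1.03 on replicate 2. No other group had its arrays so far apart. Replicate 2 is also the array with the fewest spot values of all, 14715 of 16200. On it the cDNAs at spots 9817 and 13045 read −4.27 and −4.44, while the other 10 averaged −0.37. The part of the missing values in this difference was not tested.

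After the PE plastic had been off for a day, b,pl gave 0.04 and 0.27 and B,Pl gave −0.13 and 0.19, so these groups overlapped. In the greenhouse the b,pl UV-B arrays gave 0.18 and −0.17 and the no UV-B array −0.31, which was below both. With UV-B, bz2 gave 0.36, mutator 0.18 and B,Pl −0.43. The B,Pl UV-B array was therefore the lowest of the 5 greenhouse UV-B arrays, each of them set against b,pl CA. Under CA itself, the B,Pl arrays gave 0.12 and 0.00, bz2 gave 0.18 and mutator −0.40.

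**Figure D1:**
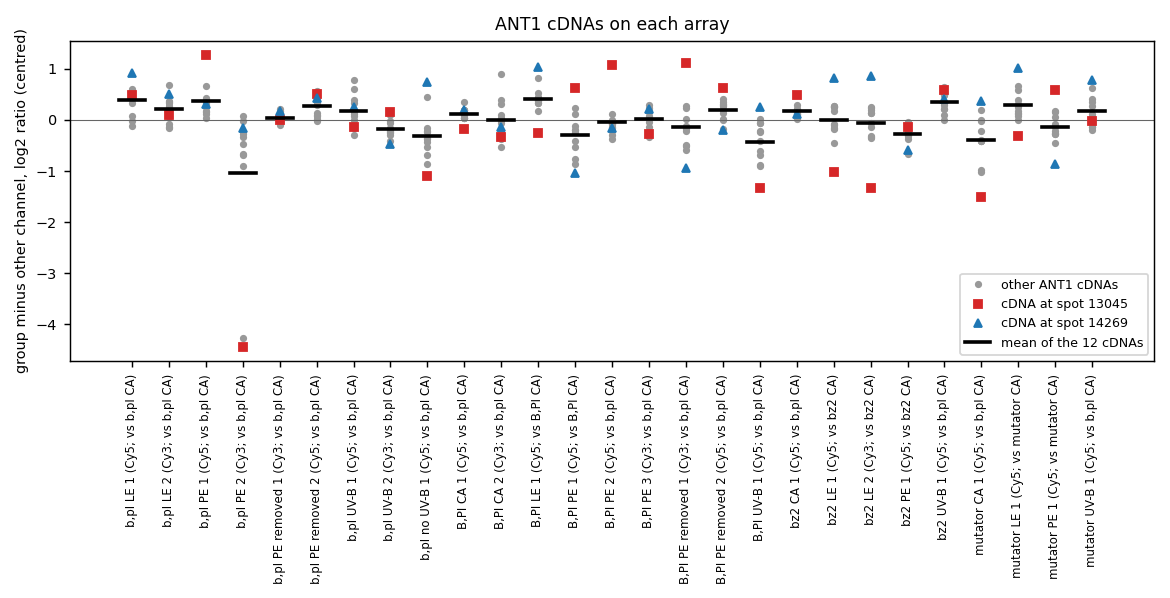
ANT1 log2 ratio (y axis, centred, named group over the other channel) on each of the 27 arrays, with the dye of the group and the other channel in brackets. Points are the 12 cDNAs and bars their mean. The b,pl PE replicate 2 array has 2 cDNAs below −4, and the cDNAs at spots 13045 (red squares) and 14269 (blue triangles) lie at opposite ends of the spread on 12 arrays.

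A linear model over all arrays, with 18 group terms and a dye term, turned the array means into 19 comparisons. In all 19 the ANT1 mean lay within 2 standard errors (SE) of 0. All these SEs scale with 1 residual SD of the ANT1 mean, 0.31. Without b,pl PE replicate 2, or without replicate 1, that SD was 0.12. The gap between these 2 arrays thus widens the SEs of every comparison. For LE against CA of the same genotype the ANT1 mean was 0.30 (SE 0.22, 2 arrays) in b,pl, 0.26 (SE 0.32, 1 array) in B,Pl, 0.13 (SE 0.32, 1 array) in mutator and −0.03 (SE 0.22, 2 arrays) in bz2. The b,pl value is a ratio of 1.23. For PE against CA all 4 genotypes had a negative mean: −0.43 (SE 0.32, 1 array) in bz2, −0.33 (SE 0.22, 2 arrays) in b,pl, −0.29 (SE 0.32, 1 array) in mutator and −0.25 (SE 0.23, 3 arrays) in B,Pl. In bz2 PE all 12 cDNAs were negative, from −0.72 to −0.14. The b,pl PE value turned to 0.29 without b,pl PE replicate 2 and moved to −0.96 without replicate 1. LE and PE of a genotype share its CA arrays, and for that reason they are given side by side and not correlated.

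With the PE plastic removed, ANT1 stood at 0.16 (SE 0.22) in b,pl and −0.12 (SE 0.29) in B,Pl, each against its own CA group and with 2 arrays. One of the b,pl arrays has conflicting dye labels, and with the dyes of the channel 2 source names the b,pl value was −0.11, with 2 of 12 cDNAs positive in place of 10. For b,pl in the greenhouse it was 0.00 (SE 0.22) with UV-B and −0.46 (SE 0.32) with no UV-B, both against b,pl CA, and 0.47 (SE 0.39) for UV-B minus no UV-B. Set against b,pl UV-B, it was −0.58 (SE 0.39) in B,Pl, 0.20 (SE 0.39) in bz2 and 0.02 (SE 0.39) in mutator. Under CA it was 0.16 (SE 0.19) in B,Pl, 0.03 (SE 0.32) in bz2 and −0.55 (SE 0.32) in mutator, against b,pl. The mutator value was the farthest from 0 in units of its SE, and it rests on 1 array with conflicting dye labels. The only bz2 CA array has conflicting labels too. With the channel 2 dyes the mutator value became 0.28 and the bz2 value −0.30, with 0 of 12 cDNAs positive in bz2 in place of 6.

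The order of the ANT1 mean over the 4 genotypes was thus b,pl, B,Pl, mutator, bz2 from high to low under LE, and B,Pl, mutator, b,pl, bz2 under PE. Neighbours in these orders differed by less than the SE of either value, and these SEs are widened by the gap between the b,pl PE arrays. The orders also depended on how the ratios were read. Taken as group over other channel, LE gave 0.40 in B,Pl, 0.27 in mutator, 0.09 in b,pl and 0.03 in bz2, and b,pl was the highest under PE at 0.70. Without b,pl PE replicate 2, b,pl was also the highest under PE, at 0.29. With UV-B, bz2, mutator and b,pl also differed from their neighbours by less than the SE of either value, while B,Pl lay 0.58 (SE 0.39) below b,pl. Among the CA groups B,Pl, bz2 and b,pl were also closer to their neighbours than the SE of either value.

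**Figure D2:**
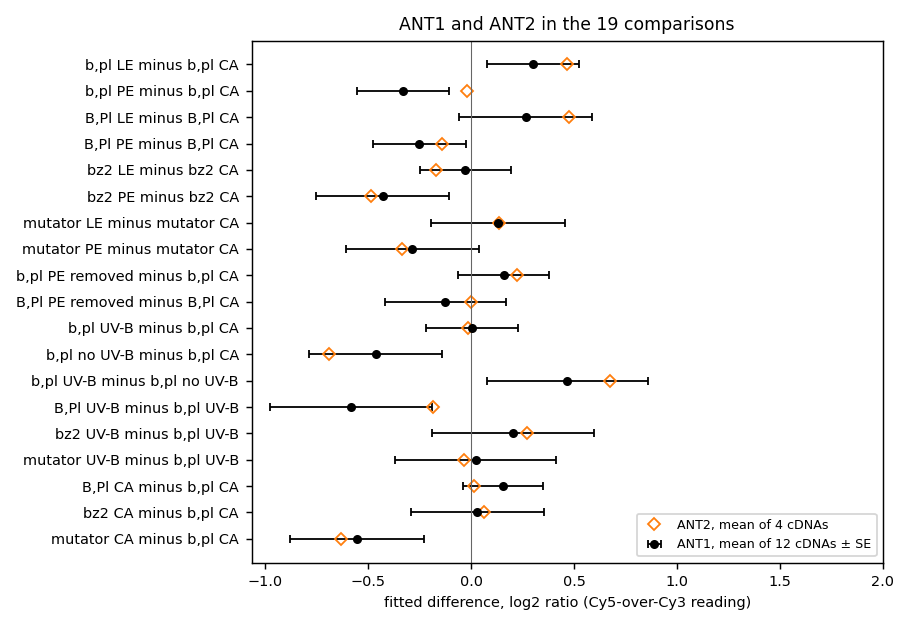
Fitted log2 difference (x axis) in the 19 comparisons. Filled points with bars are ANT1, the mean of 12 cDNAs ± SE from the linear model. Open diamonds are ANT2, the mean of 4 cDNAs. ANT1 runs from −0.58 (B,Pl minus b,pl with UV-B) to 0.47 (b,pl UV-B minus no UV-B).

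None of the 12 cDNAs passed in any comparison by limma with Benjamini-Hochberg adjustment over all cDNAs at 0.05, which is 0 of 228 tests. Without adjustment 23 of the 228 tests lay under 0.05, or 10.1%, beside 6.41% of the tests over all cDNAs. The adjusted test called few cDNAs of any gene. It called 0.242% of all cDNAs for B,Pl LE, 0.556% for bz2 LE, 0.0557% for mutator LE, 0.0186% for B,Pl minus b,pl with UV-B, 0.0371% for bz2 minus b,pl with UV-B, and 0% in each of the other 14 comparisons. The residual SD of the ANT1 mean was 0.31, against a median of 0.41 for single cDNAs.

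The gene mean hid cDNAs that moved apart from each other. Of the variance in the table of 12 cDNAs by 27 arrays, 34.1% lay between arrays, 2.99% between cDNAs, and 62.9% was left to the combination of array and cDNA. Leaving out b,pl PE replicate 2 kept these shares near where they were, at 35.2%, 2.09% and 62.8%. The 3 spots of a cDNA were much closer to each other, with median SDs from 0.023 (spot 14386) to 0.049 (spot 13045). The largest SDs on any array were 1.52 for spot 9817 and 0.894 for spot 13045. Each cDNA is named here by the number of its first spot.

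The cDNA at spot 14269 was positive for LE against CA in all 4 genotypes, as were those at spots 2248, 5689, 11317 and 14386. That at 14269 stood at 0.72 (SE 0.27) in b,pl, 0.90 (SE 0.39) in B,Pl, 0.84 (SE 0.27) in bz2 and 0.90 (SE 0.39) in mutator. On the LE arrays themselves it read 0.92 and 0.51 in b,pl, 1.03 in B,Pl, 0.81 and 0.87 in bz2, and 1.02 in mutator, so every LE array was above 0.5. It was the highest of the 12 cDNAs in each of these 4 comparisons. The smallest adjusted p of limma among them was 0.209, for bz2.

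Under PE the same cDNA was negative in 3 genotypes, at −0.58 (SE 0.27) in B,Pl, −0.72 (SE 0.39) in bz2 and −0.99 (SE 0.39) in mutator, and stood at 0.08 (SE 0.27) in b,pl. The arrays against the CA RNA of their own genotype read −1.03 in B,Pl, −0.60 in bz2 and −0.87 in mutator. The 2 B,Pl PE arrays against b,pl CA read −0.16 and 0.21, so the B,Pl arrays lay on both sides of 0. It was also negative for B,Pl PE removed, at −0.88 (SE 0.36). Both B,Pl PE removed arrays were below 0, at −0.93 and −0.20.

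The cDNA at spot 13045 ran the other way in many of the same samples. For LE against CA it stood at −1.17 in bz2 (SE 0.83), −0.77 in mutator (SE 1.21) and −0.72 in B,Pl (SE 1.21), and at 0.30 in b,pl (SE 0.83). Its LE arrays read −1.02 and −1.32 in bz2, −0.31 in mutator, −0.25 in B,Pl, and 0.49 and 0.11 in b,pl. The b,pl LE arrays were therefore above those of the other 3 genotypes. Across b,pl and bz2, 6 of the 12 ANT1 cDNAs had one sign on both b,pl LE arrays and the other sign on both bz2 LE arrays, which held for 13.3% of all cDNAs. Its value of −4.44 on b,pl PE replicate 2 enters the residual variance behind these SEs.

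This cDNA was positive on both B,Pl PE removed arrays, at 1.11 and 0.63, and on the B,Pl PE array against B,Pl CA, at 0.62. The mutator PE array read 0.60. Of the other PE arrays, those of B,Pl read 1.08 and −0.27, that of bz2 −0.14, and those of b,pl 1.27 and −4.44, so its PE values had no common sign. Over the 19 comparisons the cDNAs at spots 13045 and 14269 had opposite signs in 15, and over the arrays in 18 of 27. Their correlation was −0.48 over the 26 arrays without b,pl PE replicate 2, and −0.32 with it. These 2 cDNAs were singled out after their values were seen. Of the 66 pairs of ANT1 cDNAs, theirs was picked for having the most comparisons of opposite sign. It also had the lowest correlation, so these values show the extreme pair and not a typical one.

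**Figure D3:**
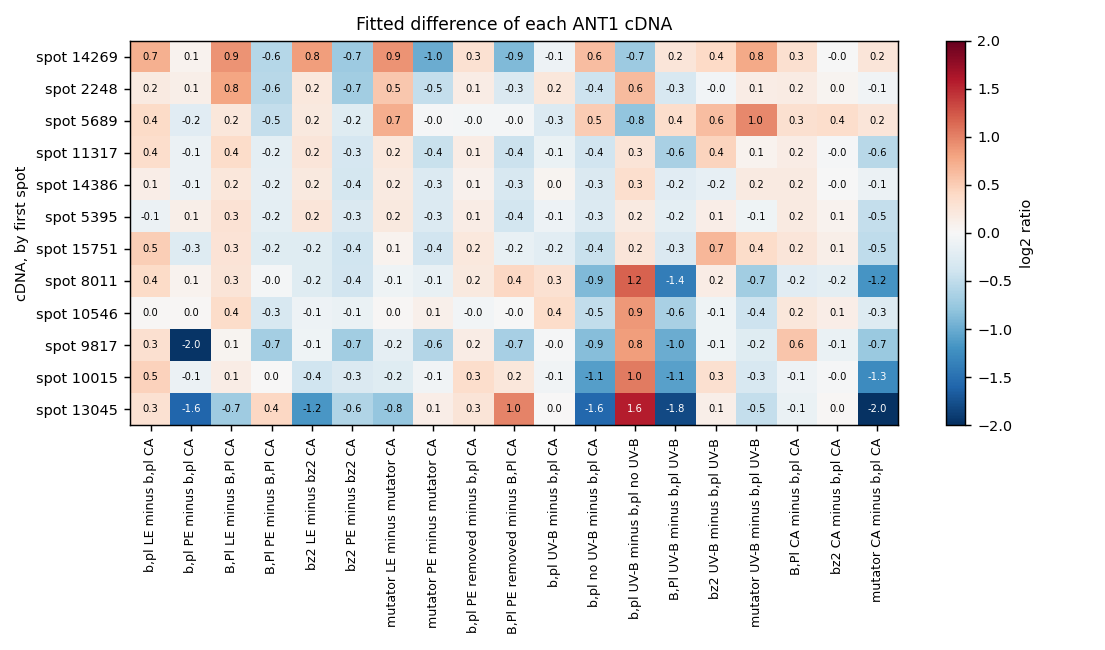
Fitted log2 difference of each ANT1 cDNA (rows, by first spot, sorted by their mean over the 4 LE comparisons) in the 19 comparisons (columns). Red is positive and blue negative, and the colour scale ends at 2 either side of 0. The top row, spot 14269, is 0.72 to 0.90 in the LE columns, where the bottom row, spot 13045, is −1.17 to 0.30.

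Some of the other cDNAs followed one or the other, and some neither. Over the same 26 arrays the cDNAs at spots 8011 and 10015 correlated at 0.91, and 10015 with 13045 at 0.80. The cDNA at spot 2248 correlated at 0.77 with 14386 and at 0.76 with 14269, and 5689 correlated at 0.64 with 14269. The cDNAs at 9817, 11317 and 15751 had correlations of 0.76 to 0.82 among themselves. With 14269 and 13045 in turn, 9817 correlated at 0.36 and 0.30, 15751 at 0.36 and 0.44, and 11317 at 0.63 and 0.18. That at spot 10546 had its highest correlation, 0.59, with 8011, and 5395 had its highest, 0.76, with 11317. Among the 48 cDNAs most correlated with each, of 4832 compared, the number of other ANT1 cDNAs ran from 0 (spots 5689, 10546 and 14269) to 8 (spot 11317). For 10546, 12 of the 14 named cDNAs among the 48 carried the symbol tua4. All of these correlations share dyes and mostly the b,pl CA RNA on the other channel.

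The cDNAs at 8011, 10015 and 13045 were the lowest on the b,pl no UV-B, B,Pl UV-B and mutator CA arrays. Most others were negative there too: 2 of 12 cDNAs were positive on the b,pl no UV-B array, 2 on the B,Pl UV-B array and 3 on the mutator CA array. On the b,pl no UV-B array they read −0.68, −0.86 and −1.10. The B,Pl UV-B array gave −0.88, −0.91 and −1.34, and the mutator CA array −0.98, −1.01 and −1.52. Each of these arrays was the only one of its group, and the mutator CA array has conflicting dye labels. On all of them the cDNA at spot 14269 was positive, at 0.74, 0.26 and 0.37.

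In fitted terms the cDNA at 8011 stood at −1.18 (SE 0.22) for mutator minus b,pl under CA, −0.88 (SE 0.22) for b,pl no UV-B minus b,pl CA, and −1.38 (SE 0.27) for B,Pl minus b,pl with UV-B. Their adjusted p by limma were 0.554, 0.368 and 0.323. The mutator value rests on the array with conflicting dye labels. In each of these comparisons 10 of 12 cDNAs were negative. The negative ANT1 means still come with a wide spread between cDNAs, with SDs of 0.66, 0.61 and 0.64. By contrast the SD over cDNAs was 0.12 for b,pl PE removed, 0.14 for bz2 under CA and 0.20 for bz2 PE, where the cDNAs lay close together.

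Between the arrays of a dye swap, the pattern over the 12 cDNAs returned in some groups and not in others. On the bz2 LE arrays it correlated at 0.98, and the sign was shared by both arrays for 12 of 12 cDNAs, beside a correlation of 0.31 and 72.7% of the same sign over all cDNAs. For B,Pl PE removed the correlation was 0.71, with 7 of 12 of the same sign, beside 0.14 and 57.7%. The b,pl LE arrays gave 0.33 and 9 of 12, with 58.1% of all cDNAs of the same sign. For b,pl UV-B it was 0.17 with 4 of 12, beside 64.1%, for B,Pl CA 0.13 with 6 of 12, beside 50.0%, and for b,pl PE removed 0.11 with 8 of 12, beside 44.2%.

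It was negative for the B,Pl PE arrays against b,pl CA, at −0.50 with 3 of 12 of the same sign, and for b,pl PE, at −0.65 with 1 of 12. Over all cDNAs these arrays also correlated below 0, at −0.39 and −0.07, and 24.8% and 45.8% of all cDNAs had the same sign. For B,Pl PE the share of ANT1 cDNAs with the same sign was thus about that of all cDNAs. One array of the B,Pl PE swap, replicate 2, has conflicting dye labels.

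**Figure D4:**
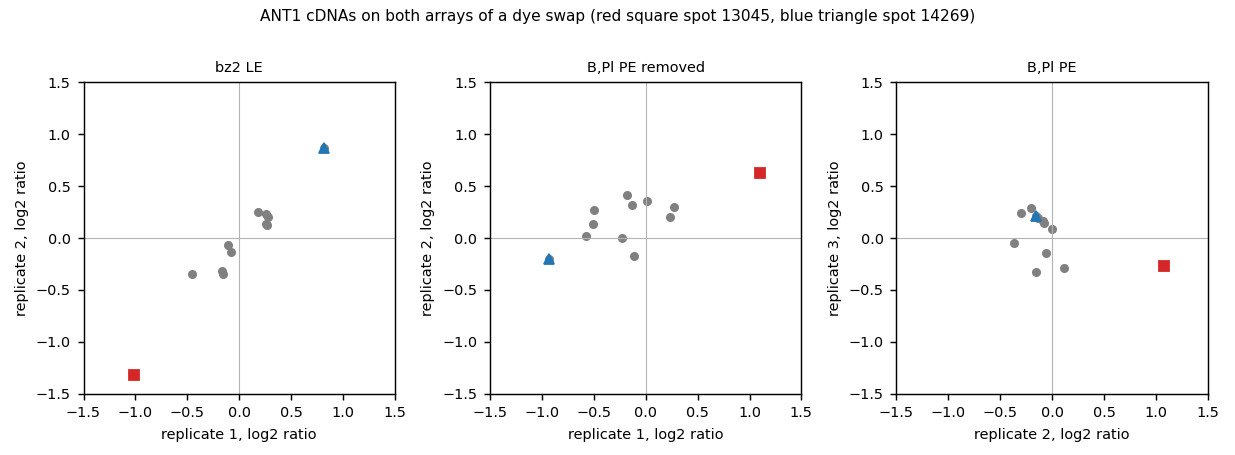
Log2 ratio of the 12 ANT1 cDNAs on one array of a dye swap (x axis) against the other (y axis), both as the named group over the other channel, for bz2 LE (left), B,Pl PE removed (middle) and B,Pl PE (right). Red squares are spot 13045 and blue triangles spot 14269. The points follow the diagonal for bz2 LE (correlation 0.98) and run against it for B,Pl PE (−0.50).

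Such a spread was not seen for ANT1 alone. All values in this paragraph are over the 26 arrays without b,pl PE replicate 2. Over 66 pairs the mean correlation between its cDNAs was 0.40, which ranked 17 of the 36 annotated genes with 5 or more cDNAs. The median of the others was 0.35. When the SD between cDNAs within an array was divided by that of all cDNAs on the array, ANT1 had a median of 0.64 and ranked 32 of 36 from the smallest. Over 26 arrays, without b,pl PE replicate 2, the cDNA at spot 11317 had the highest mean correlation with the others, 0.57, and the one at 13045 the lowest, 0.15.

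Among 204 other annotated genes, ANT2 had the array pattern most like that of ANT1. Their gene means correlated at 0.80 over 27 arrays, with a Spearman correlation of 0.90, and at 0.88 without b,pl PE replicate 2. The median gene correlated at 0.08 with ANT1. The means of ANT1 and ANT2 had the same sign on 24 of 27 arrays. Correlations over arrays here share dyes and the b,pl CA channel.

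ANT2 stood at 0.47 for b,pl LE, 0.48 for B,Pl LE, 0.14 for mutator LE and −0.17 for bz2 LE, each against CA of the genotype. As with ANT1, bz2 was the lowest of the 4 genotypes. For PE it was −0.48 in bz2, −0.33 in mutator, −0.14 in B,Pl and −0.02 in b,pl. For b,pl no UV-B it was −0.69 and for mutator under CA −0.63, the latter from the array with conflicting dye labels. Without b,pl PE replicate 2, the cDNAs of ANT1 correlated with those of ANT2 at 0.47 on average, from −0.04 to 0.91. On the same arrays the averages were 0.40 within ANT1 and 0.52 within ANT2. Transcripts of close copies can bind the same cDNA, and the part of this in the likeness was not tested.

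**Figure D5:**
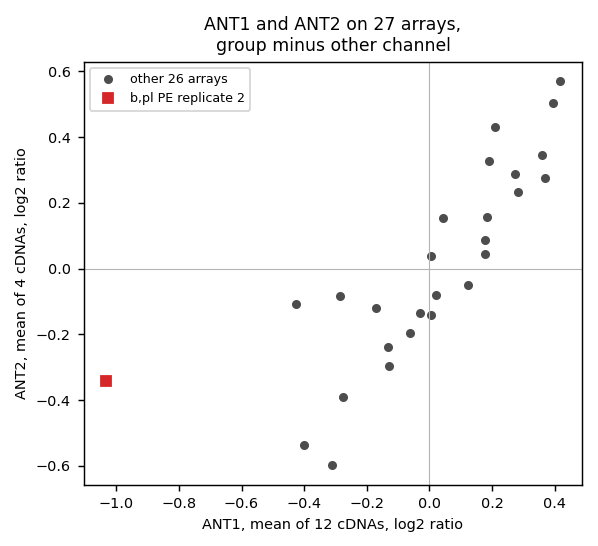
ANT1 (x axis, mean of 12 cDNAs) against ANT2 (y axis, mean of 4 cDNAs), centred log2 ratios of the named group over the other channel. Each point is 1 of 27 arrays. The red square is b,pl PE replicate 2, at −1.03 for ANT1 and −0.34 for ANT2. The correlation without it, 0.88, was taken on the Cy5 over Cy3 values and not on the plotted ones.

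The next genes by likeness were LOC541617 at 0.72, LOC541649 (tif4A2, a translation initiation factor of the eIF-4A type) at 0.71, LOC542267 (ATPB, the beta subunit of the mitochondrial ATP synthase) at 0.62 and LOC542099 at 0.60. Without b,pl PE replicate 2 these values were 0.56, 0.47, 0.64 and 0.27, so the likeness of LOC542099 rested largely on that array. The least like was LOC541808 (pp2c-1, a protein phosphatase), at −0.71, and −0.65 without that array.

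Genes around ANT1 in energy metabolism were described by counts, in lists written after the annotation was seen. Over all cDNAs at most 0.556% passed in a comparison, for bz2 LE, so counts near 0 are not read as results about a list. Of the mitochondrial membrane proteins ANT2, phb2 (a prohibitin), stomatin1 and vdac1b (a porin of the outer membrane), 0 of 209 cDNA tests passed in either direction, and the list's median ran from −0.29 to 0.31 over the comparisons. The median of all cDNAs ran from −0.03 to 0.02. For mutator under CA, phb2 stood at −0.13, stomatin1 at −0.07 and vdac1b at 0.39, beside −0.55 for ANT1. These values rest on the only mutator CA array, which has conflicting dye labels.

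In the mitochondrial matrix and respiration list, ATPB, sod3 (a superoxide dismutase), PDHE1-B (a pyruvate dehydrogenase subunit) and rf2b (an aldehyde dehydrogenase), 0 of 228 tests passed, with medians from −0.45 to 0.14. This count too stands beside at most 0.556% of all cDNAs in a comparison. ATPB stood at 0.18 for b,pl LE, 0.21 for B,Pl LE, 0.25 for mutator LE and −0.01 for bz2 LE. For mutator minus b,pl under CA, PDHE1-B had a mean of −1.73 over 3 cDNAs, from −1.89 to −1.58, and ATPB one of −0.36. For bz2 minus b,pl under CA, PDHE1-B had a mean of −1.45, from −1.72 to −1.12, and ATPB one of −0.17. The mutator and bz2 CA groups have 1 array each, with conflicting dye labels, so the direction of these values is uncertain.

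Of the enzymes of cytosolic glycolysis and sucrose breakdown, 8 genes with 45 cDNAs, 1 of 855 tests passed with a positive sign and 0 with a negative one, and list medians ran from −0.27 to 0.22. The one that passed was a cDNA of the enolase gene eno1 for bz2 LE, the comparison where most cDNAs passed, 0.556% of all. The 5 cDNAs of eno1 averaged 0.62 in bz2 LE. There ANT1 stood at −0.03, eno2, another enolase gene, at −0.33, and the sucrose synthase gene sus1 at −0.08. The glyceraldehyde-3-phosphate dehydrogenase genes GAPC1, GAPC2 and GAPC3 stood at 0.11, 0.06 and 0.05. In b,pl LE, where ANT1 stood at 0.30, GAPC3 was at 0.65, ald1 (an aldolase) at 0.26, GAPC2 at 0.15, eno1 at 0.09 and GAPC1 at −0.01. On the negative side there, eno2 was at −0.14, the sucrose synthase gene sh1 at −0.25 and sus1 at −0.26. GAPC3 stood at 0.58 in B,Pl LE and 0.37 in mutator LE. The 4 LE values of GAPC3 thus had the genotype order of the ANT1 mean, which itself changed with the reading. Over all arrays GAPC3 correlated with ANT1 at only 0.11, beside 0.08 for the median gene. For b,pl no UV-B it stood at 0.89, where ANT1 was at −0.46. The LE values of ANT2 and ATPB had other orders.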

How the data were processed

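The authors deposited 1 log2 ratio between the channels for each spot. Which channel is the numerator, the background correction and the normalisation were not given in the sources used here. The log2 base was read from the deposited values: of those over 2 in size, 16.3% had a whole antilog in base 2 within 0.0001, against 0.0751% in base e. Between 14715 and 16122 of 16200 spots had a value, and array medians lay between −0.69 and 0.37.

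Spots came in consecutive triplicates, read from the annotation and the values (median SD 0.038, against 0.183 when shifted by 1), and were averaged to 5400 cDNAs. Each array was centred on its median. Names were checked in a gene table (Zm-B73-REFERENCE-NAM-5.0), which held 208 of the 213 symbols. No coordinates or sequences were used.

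One model covered all 27 arrays, with 18 groups relative to b,pl CA and a dye term, which left 8 residual degrees of freedom, to which limma 3.58.1 in R 4.3.3 added 2.42. Least squares were run on every cDNA with a value on at least 14 arrays, with squeezeVar and two-sided Benjamini-Hochberg adjustment over cDNAs at 0.05. The ANT1 level is the same model on the mean of its 12 cDNAs. The own spread of b,pl CA is left out, and the spread of single-array groups was taken from the others. Values were read by dye, which gave a median residual variance of 0.168, against 0.216 when read as group over other channel. For the ANT1 mean itself the residual SD was larger by dye, 0.314 against 0.244. The fit was tested on simulated data. Figures used Python 3.11.15 and matplotlib 3.10.9.

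ANT1, the lists and the alternatives were chosen with earlier results of these data known. Named were all ANT1 cDNAs, the 5 genes most and the 1 least like ANT1, and members of the lists. The first list patterns found only stomatin1 and eno2, as the annotation gives no descriptions, so lists by gene alias were added.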

Additional observations from a re-analysis of the deposited data

Results flagged for a closer look

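Between b,pl and bz2, 6 of the 12 ANT1 cDNAs had opposite signs for LE against CA, with both b,pl arrays on one side of 0 and both bz2 arrays on the other. Over all cDNAs this held for 702 of 5293, or 13.3%. The b,pl minus bz2 difference of the array means was 1.47 for the cDNA at spot 13045, 0.864 at 10015, 0.739 at 15751, 0.626 at 8011, 0.414 at 9817 and −0.371 at 5395. At spot 13045 the means were 0.30 in b,pl and −1.17 in bz2, and at 5395 they were −0.12 and 0.25. The difference was not tested for any of them. The b,pl and bz2 arrays have different CA RNA on the other channel.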

How the results depend on the processing

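Over 34 alternatives and 19 comparisons, 635 of 646 ANT1 means stayed within 1 residual SD, 0.31, of their value. That limit lets a mean change sign and still count, as b,pl PE removed did from 0.16 to −0.11 with the channel 2 dyes. The other 11 are given here. Without centring, b,pl LE was 0.78, mutator PE −0.67 and bz2 under CA −0.40; medians over all cDNAs then ran from −0.44 to 0.48, and relative to it these were 0.31, −0.29 and 0.03. Read as group over other channel, b,pl PE was 0.70. With the dyes of the channel 2 source names, bz2 under CA was −0.30 and mutator under CA 0.28. For b,pl PE the value was 0.30 when the 3 arrays missing most values were left out, and −0.70 or 0.70 when the sign of replicate 1 or 2 was turned. With 1 array left out it ran from −0.96 to 0.29.

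Counts of ANT1 calls by limma were 0 of 228 under every alternative run except without b,pl PE replicate 1, where 2 passed for b,pl PE, beside 645 of 5149 cDNAs; with 1 array left out the count ran from 0 to 2. The cause was not tested. The sign of the ANT1 mean was kept under all 34 alternatives in 11 of 19 comparisons, among them LE against CA for b,pl (0.09 to 0.78), B,Pl (0.10 to 0.42) and mutator (0.03 to 0.28), and PE against CA for B,Pl, bz2 and mutator. No alternative left out the only array of a group, or read all arrays as Cy3 over Cy5, which would turn every sign. A kept sign in a group with 1 array, such as B,Pl LE, was thus not checked against a second array. Leaving out the cDNAs at 9817 and 13045 was added after the data were seen. No paired analysis was possible because the labels give no replicate numbers. The number of arrays limits the precision, and signal over background was not analysed here.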
